A study of Mus musculus with 6 samples.

Results

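Leukemia cells and macrophages from iron-loaded leukemic mice were compared gene by gene, with 1 RNA-seq library for each kind of cell. The comparison covered every protein-coding gene with an FPKM (reads scaled to exon length and to library depth) of at least 1 in either library. This left 11356 of 21995 protein-coding genes, in a table of 54532 genes. The series holds 6 libraries, 1 per condition. Macrophages were sequenced from WT mice, which carried no leukemia, and from MA9 mice, each without and with iron (WT/FE and MA9/FE), and leukemia cells were sequenced from MA9 and MA9/FE mice. All mice were C57BL/6. MA9 cells came from c-kit+ BM cells infected with a retrovirus that carries the MLL-AF9 fusion gene and GFP, and GFP+ leukemia cells were passed on by transplantation. FE mice received repeated intraperitoneal injections of iron dextran and the other mice received PBS, so both libraries compared here share the leukemia, the transplantation and the iron. The macrophage gate in the methods was GFP- Gr-1lo F4/80+ CD115int. The labels name the spleen as the tissue of the macrophages and the BM as that of the leukemia cells, whereas the methods speak of BM macrophages, and this conflict was not settled. If the labels hold, kind of cell and tissue cannot be told apart. Whether RNA of several mice was pooled, and whether both kinds of cell came from the same mice, was not given in the sources used here.

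MLL-AF9 joins the DNA-binding part of MLL to a partner that recruits elongation factors, and cells that carry it keep the late HOXA genes and MEIS1 switched on. Such leukemia cells resemble granulocyte and monocyte progenitors, which make the proteases of azurophil granules. Macrophages of iron-handling tissues engulf aged red cells, break heme down with heme oxygenase, store iron in ferritin and release it through ferroportin.

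The recovered depth was 17852022 reads for the MA9/FE leukemia cells and 16085344 for the MA9/FE macrophages, and over the 6 libraries it lay between 16085344 and 19518354. The difference of a gene is given as log2(FPKM + 1) in leukemia cells minus macrophages, after TMM scaling (trimmed mean of M values) of both libraries, and a gene was called at a fold of at least 2 on that scale. The scale understates the difference of genes with a low value. With 1 library per kind of cell there is no replicate check and no p-value for this pair. In bulk RNA, fewer cells of a type and less RNA per cell cannot be told apart.

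Of the 11356 genes, 2928 were called (25.8%), 1302 higher in the leukemia cells (11.5%) and 1626 lower (14.3%). The lower side reached further. A fold of at least 4 was seen in 324 genes higher (2.85%) and 623 lower (5.49%), and a fold of at least 16 in 42 (0.37%) and 133 (1.17%). The median difference was 0.01, and 5% of genes lay below -2.13 and 5% above 1.55. Both libraries held 9631 genes at an FPKM of at least 1. Another 620 genes reached it in the leukemia cells alone and 1105 in the macrophages alone, and for these the rule in effect set the direction. In all, 60 genes had an FPKM of at least 10 in the leukemia cells and under 1 in the macrophages, against 165 the other way around.

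**Figure D1:**
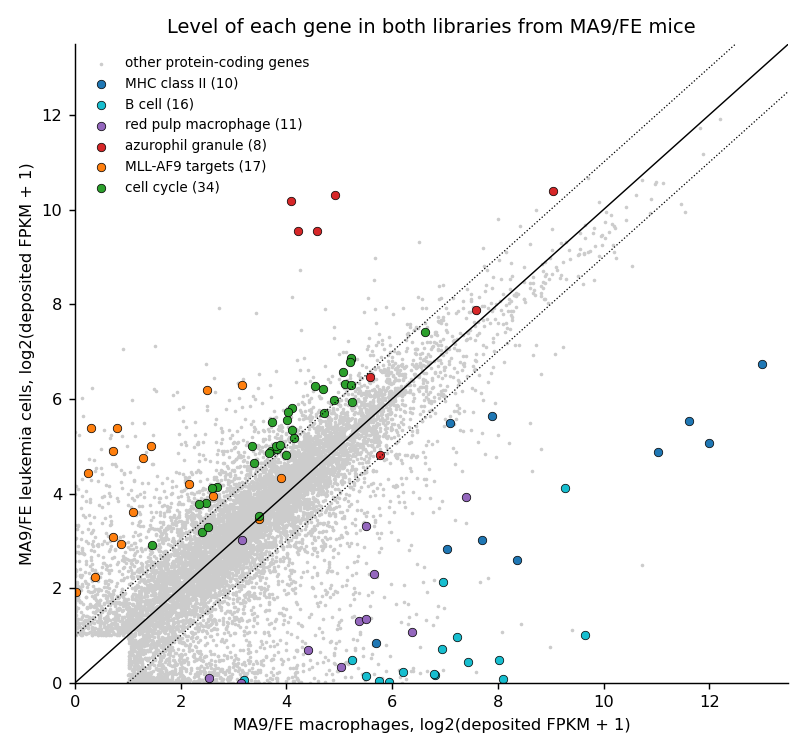
Deposited level of each of the 11356 genes in MA9/FE macrophages (horizontal) and MA9/FE leukemia cells (vertical), both as log2(FPKM + 1). The solid line marks equal levels, the dotted lines a fold of 2, and colours mark 6 gene lists with their number of genes. Above the upper dotted line lie 5 of 8 azurophil granule and 15 of 17 MLL-AF9 target genes, and below the lower one all 10 MHC class II, all 16 B cell and 10 of 11 red pulp macrophage genes.

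Most genes known as targets of MLL-AF9 were higher in the labelled leukemia cells. Normal progenitors were not sequenced, so the part of the fusion gene in these differences was not tested. Of 17 MLL-AF9 target genes among the 11356, 15 were higher and 0 lower, with a median difference of 2.49 against 0.01 over all genes. In MA9/FE macrophages 9 of the 18 listed genes reached an FPKM of 1, so the minimum level set the direction of the other members. Hoxa9, the HOX factor most closely tied to this leukemia, had an FPKM of 41.0 in MA9/FE and 40.6 in MA9 leukemia cells. It read 0.724 and 0.791 in MA9/FE and MA9 macrophages, and 0.128 and 0.119 in WT/FE and WT macrophages. Its difference was 4.58. Meis1, the cofactor of HOXA9, read 6.66 and 7.27 in the leukemia cells of MA9/FE and MA9 mice and between 0.548 and 0.933 in the 4 macrophage libraries. No macrophage library overlapped the leukemia cells for either gene. Hoxa5, Hoxa6, Hoxa7 and Hoxa10 differed by 3.56, 4.17, 3.43 and 4.16. The kinase gene Cdk6 and the transcription factor gene Myb differed by 3.67 and 3.10. Mef2c and Jmjd1c, with differences of 0.40 and -0.06, were the members that were not called.

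Azurophil granule proteases were among the most abundant mRNAs of the leukemia cells and gave differences among the largest. Of 8 granule genes 5 were higher and 0 lower (median 3.12). Ctsg, which encodes cathepsin G, had an FPKM of 1154 in MA9/FE and 1091 in MA9 leukemia cells. It read 16.1 and 28.1 in MA9/FE and MA9 macrophages, and 1.498 and 0.942 in WT/FE and WT macrophages. Elane, which encodes neutrophil elastase, had 1270 and 1705 in the leukemia cells, 29.4 and 56.8 in the MA9/FE and MA9 macrophages, and 0.968 and 1.51 in those of WT/FE and WT mice. The libraries of each gene fell into 3 levels that did not overlap, highest in leukemia cells and lowest in mice without leukemia. Their differences were 6.05 and 5.35, and those of Prtn3 (proteinase 3) and Mpo (myeloperoxidase) were 5.29 and 4.93. Prtn3 (GRCm38, chr10:79874476-79883174, plus strand) and Elane (chr10:79886247-79888215, plus strand) are neighbours, and the RefSeq start of Prtn3 lies downstream of the first base of its GENCODE gene. Ctsc, the cathepsin that activates these proteases, was not called at -0.99. It passed as lower in the test over both pairs given below, at -0.89 ± 0.16 (SE, limma adjusted p = 0.000596).

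Promoters of these neighbouring genes are shown because both hold the letters GAGGAAGT, a core bound by the myeloid factor PU.1 (Spi1), within 180 bases before the RefSeq start. Sequences are from RefSeq (GRCm38.p6), on the strand of the gene, with the motif in capitals. The Prtn3 stretch is chr10:79879487-79879666 (plus) and the Elane stretch chr10:79886132-79886311 (plus).
Prtn3: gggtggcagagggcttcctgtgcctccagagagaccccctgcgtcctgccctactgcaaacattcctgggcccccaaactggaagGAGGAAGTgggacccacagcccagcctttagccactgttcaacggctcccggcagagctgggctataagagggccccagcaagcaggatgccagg
Elane: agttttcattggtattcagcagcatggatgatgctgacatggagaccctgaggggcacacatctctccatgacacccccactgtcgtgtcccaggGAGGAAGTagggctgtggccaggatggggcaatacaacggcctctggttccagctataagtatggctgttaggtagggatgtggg
The motif was found on either strand in 4 of 7 azurophil granule promoters, in 3.22% of 995 promoters of genes higher in leukemia cells, in 6.11% of 1260 promoters of genes lower, and in 3.69% of 27025 promoters of all genes, each 300 bases long. Spi1 itself had an FPKM of 130 in MA9/FE leukemia cells and 116 in the macrophages, a difference of 0.13.

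Most other genes of myeloid progenitors and monocytes pointed the same way. Of 15 progenitor genes 9 were higher and 0 lower (median 2.21). Cd34, a surface marker of progenitors, had an FPKM of 36.3 in MA9/FE leukemia cells and 1.20 in the macrophages. Cebpa and Gfi1, factors of granulocyte commitment, differed by 2.31 and 3.22. Kit and Flt3, receptors of early progenitors, went the other way and were not called (-0.58 and -0.43). In the test over both pairs given below they passed as lower, by -0.83 ± 0.17 and -0.88 ± 0.20 (SE, limma adjusted p = 0.00171 and 0.00361). Without iron 2 of the 15 progenitor genes were called lower. Of 7 inflammatory monocyte genes 6 were higher and 0 lower (median 2.40). F13a1, the A chain of coagulation factor XIII, had the largest difference toward the leukemia cells, among genes whose higher library held 100 reads or more. It read 133 and 93.2 in MA9/FE and MA9 leukemia cells and between 0.114 and 1.14 in the 4 macrophage libraries, a difference of 6.12 and, without the pseudocount, a ratio of 147 (95% interval 120 to 181). This interval, like the others here, covers counting error only. Of 15 neutrophil genes 7 were higher and 1, the formyl peptide receptor gene Fpr1, was lower (median 0.98). S100a8, a subunit of calprotectin, had an FPKM of 582 in MA9/FE leukemia cells, 209 in MA9/FE macrophages and 0.172 in WT/FE macrophages.

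Other genes of varied function were among the 12 largest differences toward the leukemia cells. Tcf24, which encodes a bHLH factor, read 48.9 in MA9/FE leukemia cells and 0.104 in the macrophages, Dmrtb1, a DM domain factor of the testis, 137 and 1.85, and Rab44, a large Rab GTPase, 241 and 5.61. Rbp4, the plasma carrier of retinol, read 36.9 and 14.8 in MA9/FE and MA9 leukemia cells and at most 0.0479 in the macrophage libraries. Stfa1 and BC100530, cystatin-like genes on chromosome 16 with near-identical neighbours, had differences of 5.89 and 5.28, and how reads were split among such copies was not given in the sources used here. BC100530 had 0 reads in MA9/FE macrophages, which makes it at least 159-fold higher in the MA9/FE leukemia cells when set against a floor of 3 reads. MA9 macrophages, however, held 117 reads of Stfa1 and 84 of BC100530, and the differences without iron were 3.55 and 3.12.

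Cell cycle genes formed a narrow group. Of 34 genes 26 were higher and 0 lower, with a median of 1.22 and no difference above 1.74. Top2a, the topoisomerase of dividing cells, read 76.7 and 72.2 in MA9/FE and MA9 leukemia cells. It read 22.4 and 44.6 in MA9/FE and MA9 macrophages, and 9.57 and 9.50 in WT/FE and WT macrophages. Mcm2 and Mcm5, parts of the replicative helicase, differed by 1.67 and 1.61. Of 36 replication-dependent histone genes, whose mRNAs peak in S phase, 21 were higher and 1 lower (median 1.15). The list names 67 such genes, and the median over all of them was 0.45. Near-identical copies and mRNAs without a poly(A) tail make these counts uncertain.

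Of 16 glycolysis genes 10 were higher and 1, the glucose transporter gene Slc2a3, was lower (median 1.04). Pgam1 (phosphoglycerate mutase) read 280 in MA9/FE leukemia cells and 45.5 in the macrophages, and Pkm (pyruvate kinase) 276 and 94.2. Gapdh, a gene with many processed copies, read 33.2 and 11.3 in MA9/FE and MA9 leukemia cells and 4.38 and 4.54 in the macrophages. Nuclear genes of the respiratory chain stood level. Of 78, 1 was higher, 1 lower and the median was 0.01. Cox6b2 and Cox6a2, tissue-restricted subunits of complex IV, had opposite differences of 2.11 and -3.21.

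**Figure D2:**
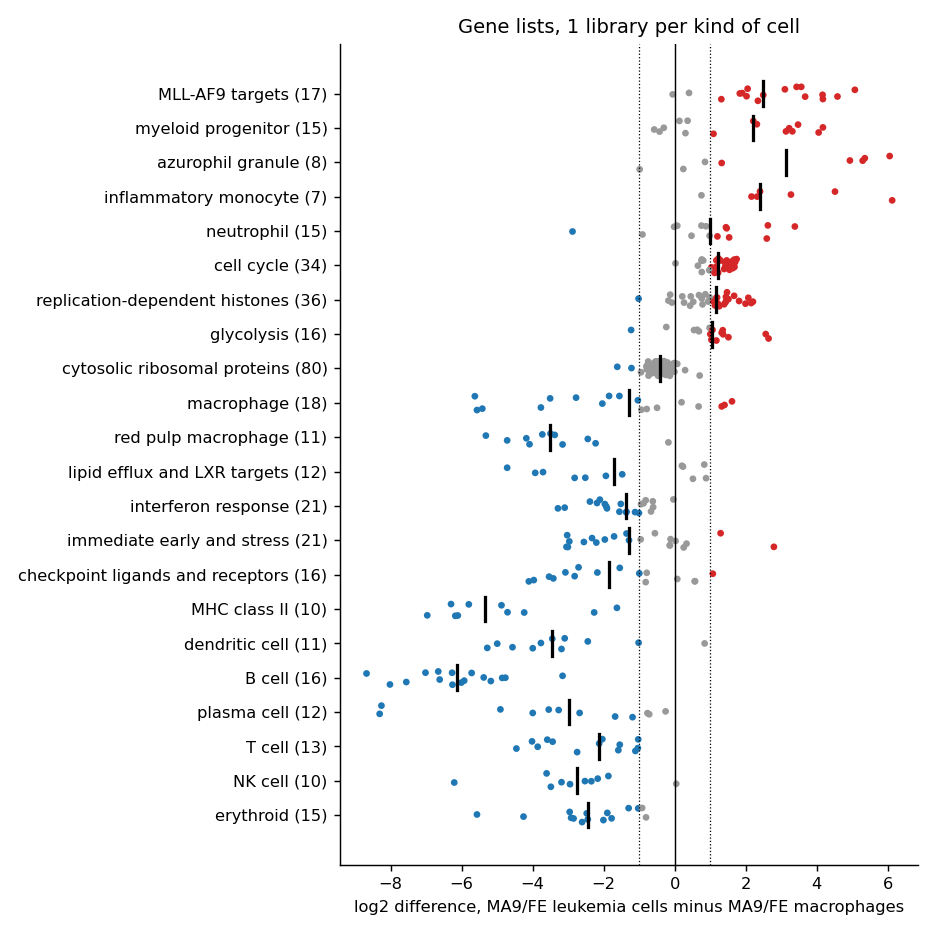
Difference of every member of 22 gene lists in log2(FPKM + 1), MA9/FE leukemia cells minus MA9/FE macrophages. Each point is 1 gene, black bars are list medians, red and blue points have a fold of at least 2, and the number of genes is in parentheses. Medians run from 3.12 for azurophil granule genes to -6.14 for B cell genes.

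The labelled macrophages expressed macrophage genes, but not all of these were lower in the leukemia cells. Of 18 macrophage genes 10 were lower and 3 higher (median -1.30). Adgre1, which encodes F4/80, and Csf1r, which encodes CD115, are the proteins of the sorting gate. Adgre1 read 52.4 in MA9/FE macrophages and 27.5 in the leukemia cells, and Csf1r read 98.1 and 70.7, and neither was called (-0.94 and -0.50). Lyz2 (lysozyme), Itgam (CD11b) and Cx3cr1 were higher in the leukemia cells, by 1.32, 1.40 and 1.61. The summed FPKM of the list was 1540 in MA9/FE macrophages and 1701 in the leukemia cells, of which Lyz2 alone made up 528 and 1348. The engulfment receptor gene Mertk and the mannose receptor gene Mrc1 differed by -3.77 and -3.51. C1qa, a subunit of the complement starter C1q, read 223 in MA9/FE, 62.8 in MA9, 137 in WT/FE and 67.7 in WT macrophages, and 3.61 and 4.50 in the leukemia cells. The difference of C1qa was -5.63, and those of C1qb and C1qc were -5.57 and -5.42.

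Genes that mark red pulp macrophages of the spleen separated the libraries more sharply than the general list. Of 11 genes 10 were lower and 0 higher (median -3.50). In MA9/FE leukemia cells 7 of the 11 reached an FPKM of 1. The other members, among them Spic and C6, entered through the macrophages alone, so the minimum level set their direction, though not the size of the difference. Spic, the factor that sets up this lineage, read 31.8 in MA9/FE macrophages and 0.263 in the leukemia cells. Cd5l, a secreted scavenger protein, read 81.6 in MA9/FE and 32.5 in MA9 macrophages, against 1.10 and 1.24 in the leukemia cells, a difference of -5.32. C6, a complement gene, had 450 reads in MA9/FE macrophages and 0 in the leukemia cells, which is at least 170-fold lower against the floor of 3 reads. Cd163, the hemoglobin scavenger receptor, was not called at -0.18, with 7.97 in the macrophages and 7.10 in the leukemia cells.

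Among 4 genes of iron storage and export 2 were lower and 1 higher (median -0.94, and -0.36 over all 8 genes listed). Ferroportin, the iron exporter encoded by Slc40a1, had an FPKM of 49.4 in MA9/FE, 17.6 in MA9, 40.8 in WT/FE and 18.8 in WT macrophages, and 3.93 and 3.95 in MA9/FE and MA9 leukemia cells. All 4 macrophage libraries lay above both leukemia libraries, and the difference was -3.38. The ferritin heavy chain gene Fth1 read 1206 in MA9/FE macrophages and 506 in the leukemia cells (-1.29), and the light chain gene Ftl1 789 and 532 (-0.60, not called). Both ferritin genes have many processed copies. Ncoa4, the receptor that carries ferritin to the lysosome, was the exception at 22.6 in the leukemia cells and 7.35 in the macrophages (1.47). Of 15 uptake and sensor genes 4 were lower and 0 higher. These were Slc11a1 (-3.02), the iron pump of the phagosome, Hfe (-2.90), Tfr2 (-1.57) and Trf (-1.17). The transferrin receptor gene Tfrc read 11.7 in MA9/FE leukemia cells and 17.1 in the macrophages (-0.54), and the iron sensors Aco1 and Ireb2 differed by 0.03 and 0.11. Tfrc was not called, but passed as lower in the test over both pairs given below (-0.43 ± 0.15 SE, limma adjusted p = 0.0394).

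Of 10 genes for scavenging and breakdown of heme 3 were lower and 1 higher. Hmox1, the inducible heme oxygenase, read 167 in MA9/FE, 104 in MA9, 133 in WT/FE and 104 in WT macrophages, and 14.2 and 13.02 in the leukemia cells (-3.50). Blvrb (biliverdin reductase B) and the heme exporter gene Flvcr1 differed by -3.03 and -1.66. Hp (haptoglobin), which binds free hemoglobin, went the other way, with 424 in MA9/FE leukemia cells and 18.04 in the macrophages (4.45). Of 9 genes for making heme, Alas1, the first enzyme outside the red cell lineage, was higher at 54.6 against 6.22 (2.91), whereas Alad and the erythroid Alas2 were lower (-1.15 and -1.10). Among 13 ferroptosis and NRF2 genes, Gsr (glutathione reductase), Aifm2 and Srxn1 were higher, by 3.14, 1.48 and 1.12, and 0 were lower. Gpx4, which detoxifies lipid peroxides, differed by 0.27. Of 12 genes of lipid efflux 7 were lower and 0 higher (median -1.71), among them Apoe at 29.5 against 453 (-3.93).

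All 10 MHC class II genes were lower in the leukemia cells (median -5.34), and their summed FPKM was 18545 in MA9/FE macrophages and 323 in the leukemia cells. Cd74, the invariant chain, was the most abundant protein-coding mRNA of the MA9/FE macrophages at 8144, and it read 105 in the leukemia cells (-6.30). H2-Eb1 (GRCm38, chr17:34305867-34316674, plus strand), a beta chain, read 4100 in MA9/FE, 2456 in MA9, 3646 in WT/FE and 4041 in WT macrophages, and 32.4 and 32.8 in the leukemia cells (-6.97). The 2 kinds of cell were far apart in every library. Ciita, the coactivator of these genes, read 50.5 and 0.781 (-4.88). The H2-Eb1 and H2-Aa promoters are shown for the Y box of MHC class II genes (letters CTGATTGG, in capitals), at chr17:34305687-34305866 (plus) and chr17:34287824-34288003 (minus).
H2-Eb1: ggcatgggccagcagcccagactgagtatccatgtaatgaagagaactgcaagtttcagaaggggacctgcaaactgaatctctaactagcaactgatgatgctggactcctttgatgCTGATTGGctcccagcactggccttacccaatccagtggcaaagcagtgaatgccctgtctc
H2-Aa: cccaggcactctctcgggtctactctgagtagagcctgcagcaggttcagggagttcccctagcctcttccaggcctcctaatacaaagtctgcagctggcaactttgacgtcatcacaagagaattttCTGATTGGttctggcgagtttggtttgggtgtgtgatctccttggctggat
The letters were found on either strand in 3 of 7 MHC class II promoters, in 6.19% of 1260 promoters of genes lower in the leukemia cells, in 7.44% of 995 promoters of genes higher, and in 4.70% of 27025 promoters of all genes.

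Markers of lymphoid and dendritic cells were present in the macrophage libraries and lower in the leukemia cells. All 16 B cell genes were lower (median -6.14), and their summed FPKM was 3014 in MA9/FE macrophages, between 1841 and 3079 in the other macrophage libraries, and 24.2 and 26.2 in MA9/FE and MA9 leukemia cells. Cd79a, a signalling chain of the B cell receptor, had the largest difference of all (-8.68), with 802 in MA9/FE macrophages and 0.9996 in the leukemia cells. Of 12 plasma cell genes 9 were lower, with Jchain, the joining chain of secreted antibodies, at 1686 and 4.63 (-8.26), and their summed FPKM was 2892 in MA9/FE macrophages and 240 in the leukemia cells. Immunoglobulin segments, which are not among the 11356 genes, took 17.8% of the summed FPKM of the MA9/FE macrophages and 0.277% of that of the leukemia cells. Of 11 dendritic cell genes 10 were lower (median -3.45), with the chemokine receptor gene Ccr7 at 117 and 2.10. All 13 T cell genes and 9 of 10 NK cell genes were lower (medians -2.13 and -2.74), and the NK cell list summed to 185 in MA9/FE macrophages and 52.5 in the leukemia cells. In MA9/FE leukemia cells an FPKM of 1 was reached by 2 of 16 B cell, 3 of 14 T cell, 1 of 10 NK cell and 4 of 11 dendritic cell genes. The other members entered through the macrophages alone, so the minimum level set their direction, though not the size of the difference. Macrophages of this gate are not known to express Cd79a or Jchain. The part of other cells in the sorted macrophages in the differences of MHC class II and the genes that follow was not tested.

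**Figure D3:**
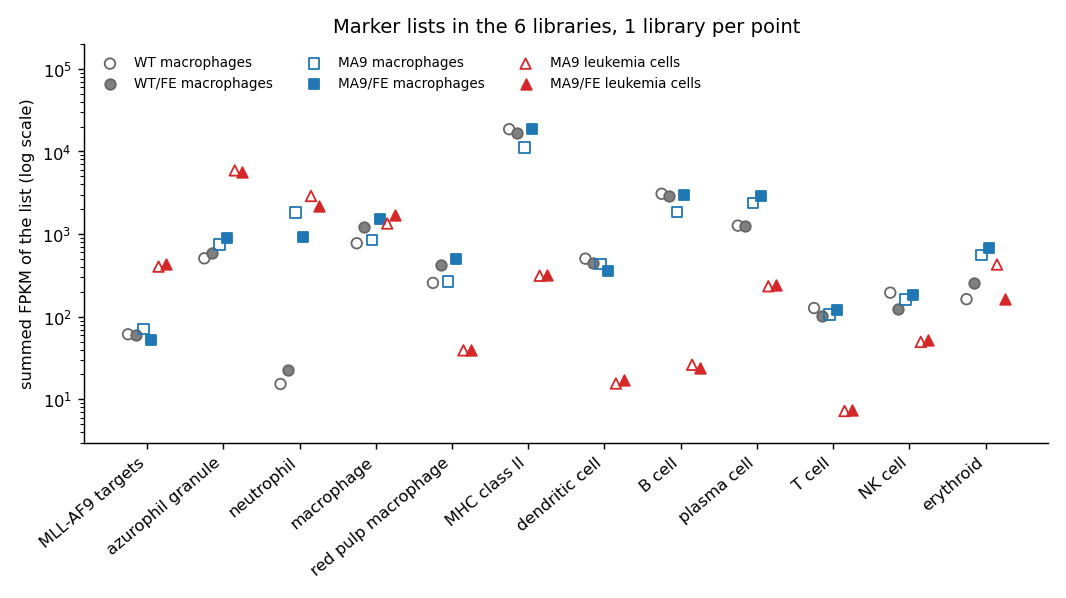
Summed deposited FPKM of 12 marker lists in the 6 libraries, on a log scale, with 1 point per library. B cell genes sum to between 1841 and 3079 in the 4 macrophage libraries and to 24.2 and 26.2 in the leukemia cells, whereas macrophage genes overlap between both kinds of cell.

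Erythroid genes were also lower, 13 of 15 (median -2.45). Car1 (carbonic anhydrase 1) read 108 and 1.35, and Klf1, the erythroid master factor, 15.03 and 1.10. Hemoglobin chains were part of this list, and their reads cannot be cleanly split between near-identical genes. All were called lower with iron, but without iron Hba-a2, Hbb-bs, Hba-a1 and Hbb-bt differed by 2.19, 1.15, 0.68 and 0.02. Without iron 11 erythroid genes were called lower and 2 higher. Of 4 megakaryocyte genes 2 were lower, of 7 basophil and mast cell genes 3 were lower and 2 higher, and of 3 endothelial or stromal genes 1 was lower and 1 higher.

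Among 16 checkpoint genes 9 were lower and 1 higher (median -1.86). In MA9/FE leukemia cells 10 of the 16 reached an FPKM of 1. The other members, among them Cd86, Havcr2, Ctla4 and Pdcd1, entered through the macrophages alone, so the minimum level set their direction. Cd47, the signal on target cells that stops engulfment, read 117 and 108 in MA9/FE and MA9 leukemia cells and between 50.2 and 55.6 in the 4 macrophage libraries (1.07). Its receptor gene Sirpa read 60.1 in MA9/FE leukemia cells and 103 in the macrophages, and was not called (-0.79). Cd274, which encodes PD-L1, read 2.65 and 37.1 (-3.42), Cd86 0.857 and 27.7 (-3.97), and Havcr2 (TIM-3) 0.803 and 29.5 (-4.11). Cd24a, another signal against engulfment, was not called at -0.82, nor was Lgals9 at 0.57. In the test over both pairs given below, 3 checkpoint genes passed as higher and 12 as lower. Sirpa, Cd24a and Lgals9 were among them, at -0.68 ± 0.18, -0.83 ± 0.20 and 0.64 ± 0.17 (SE, limma adjusted p = 0.00747, 0.00466 and 0.0076). Ctla4 and Pdcd1, receptors of T cells, had 206 and 59 reads in the macrophage library and 0 in the leukemia cells. B cells, dendritic cells and T cells are known to express several of these genes. Markers of these cells were also lower, as given above, and their part in the checkpoint differences was not tested.

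Genes of the interferon response were lower. Of 21 genes 14 were lower and 0 higher (median -1.37). Isg15, a ubiquitin-like modifier, read 3.04 and 9.76 in MA9/FE and MA9 leukemia cells and 37.8 and 34.4 in MA9/FE and MA9 macrophages (-3.29). Ifit3 read 1.32 and 2.21 in the same leukemia cells and 18.5 and 13.6 in the macrophages (-3.10). The promoters of both are shown for the interferon response element, here GAAA repeated after a gap of 2 bases, in capitals on either strand, at chr4:156200819-156200998 (minus) for Isg15 and chr19:34583349-34583528 (plus) for Ifit3.
Isg15: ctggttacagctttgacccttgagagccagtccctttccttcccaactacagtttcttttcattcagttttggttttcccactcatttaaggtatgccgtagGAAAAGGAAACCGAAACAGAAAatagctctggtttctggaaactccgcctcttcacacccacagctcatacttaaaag
Ifit3: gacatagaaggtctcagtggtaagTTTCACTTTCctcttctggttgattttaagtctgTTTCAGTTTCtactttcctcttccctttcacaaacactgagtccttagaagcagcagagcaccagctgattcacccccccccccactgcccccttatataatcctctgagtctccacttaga
The element was found in 10 of 16 promoters of the list, in 8.18% of 1260 promoters of genes lower in the leukemia cells, in 2.71% of 995 promoters of genes higher, and in 3.99% of 27025 promoters of all genes. These shares are a description of letters in a window, not of binding.

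Sensors and secreted signals held genes of both directions. In MA9/FE leukemia cells an FPKM of 1 was reached by 11 of 15 Toll-like receptor, 5 of 11 Fc receptor and 4 of 12 polarization genes listed. For members that reached it in the macrophages alone, the minimum level set the direction. Of 15 Toll-like receptor genes 8 were lower and 0 higher, with Tlr3, the sensor of double-stranded RNA, at 581 reads in the macrophages and 0 in the leukemia cells (at least 220-fold lower). Of 10 Fc receptor genes 7 were lower and 1, Fcgr3, higher. Of 12 chemokine genes at the minimum level (23 listed) 6 were lower, led by Ccl5 (-7.37), a product of T and NK cells. Ccl9, Ccl2 and Ccl3 were higher, by 2.54, 2.48 and 2.18. Among 8 polarization genes Il1b, Il12b, Il10, Cd86 and Mrc1 were lower and Chil3 was higher (2.32). Nos2, Il6, Arg1 and Retnla, also among the 12 listed, were under the minimum level. Of 11 complement genes 5 were lower and 3 higher, with C3, the central component, at 79.2 in MA9/FE leukemia cells and 7.46 in the macrophages (3.21). Of 21 immediate early genes 11 were lower and 2 higher, with Nr4a1 at 27.4 and 216 (-2.97), whereas Fos was not called (300 and 324, -0.14). Of 20 lysosome genes 5 were higher and 2 lower. Of 11 growth factor and receptor genes 2 were higher, Csf3r and Il3ra (1.93 and 1.74), and 2 lower. Of 17 chaperone genes 0 were higher and 1 lower, and of 18 actin genes 0 and 1.

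The same difference was then read in MA9 leukemia cells and MA9 macrophages, a pair without iron that shares no library with the first. On the same 11356 genes, 1022 were higher (9%) and 1485 lower (13.1%). Of the genes called higher with iron 857 were called higher without it, which is 65.8% of the first list and 83.9% of the second. Of those lower with iron 1292 were lower without it, 79.5% and 87.0% of the lists. With iron alone 443 were called higher and 332 lower, and 4 genes were called in opposite directions. Whether the 2 pairs differ cannot be tested with 1 library per condition.

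In several gene lists most members shifted the same way between the pairs. Over all 11356 genes the difference was higher with iron for 5573 and lower for 5783 (median shift -0.01). Other lists were near even, such as iron uptake and sensor genes (7 higher, 8 lower), azurophil granule genes (4 and 4) and complement genes (5 and 6). Of 34 cell cycle genes 8 were higher without iron (median 0.61, against 1.22 with iron), and the difference was larger with iron for 33 of 34. For Top2a the leukemia libraries read 76.7 with and 72.2 without iron, and the macrophage libraries 22.4 and 44.6. Cytosolic ribosomal protein genes had a median of -0.43 with iron and 0.13 without, and the difference was lower with iron for 78 of 80, although only Rps27a and Rps27 were called. Respiratory chain genes had medians of 0.01 and 0.31 and were lower with iron in 71 of 78. Ribosomal protein and respiratory chain genes are short, with median exon lengths of 1805 and 1696 bases. With the trend on exon length removed from both pairs, an alternative chosen after seeing the data, the median shift between the pairs went from -0.54 to -0.31 for ribosomal protein genes (77 of 80 lower with iron), from -0.30 to -0.11 for respiratory chain genes (52 of 78) and from 0.54 to 0.55 for cell cycle genes. All 16 B cell genes were further apart with iron (medians -6.14 and -5.43), along with a summed macrophage FPKM of 3014 with and 1841 without iron. The difference was also lower with iron for 10 of 10 Fc receptor genes and 17 of 18 macrophage genes. Of 21 immediate early genes 18 had a higher difference with iron (medians -1.29 and -1.63). Lars2, an enzyme that charges mitochondrial tRNA, changed by -2.32 between the pairs, and its macrophage libraries read 145 with and 35.1 without iron.

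**Figure D4:**
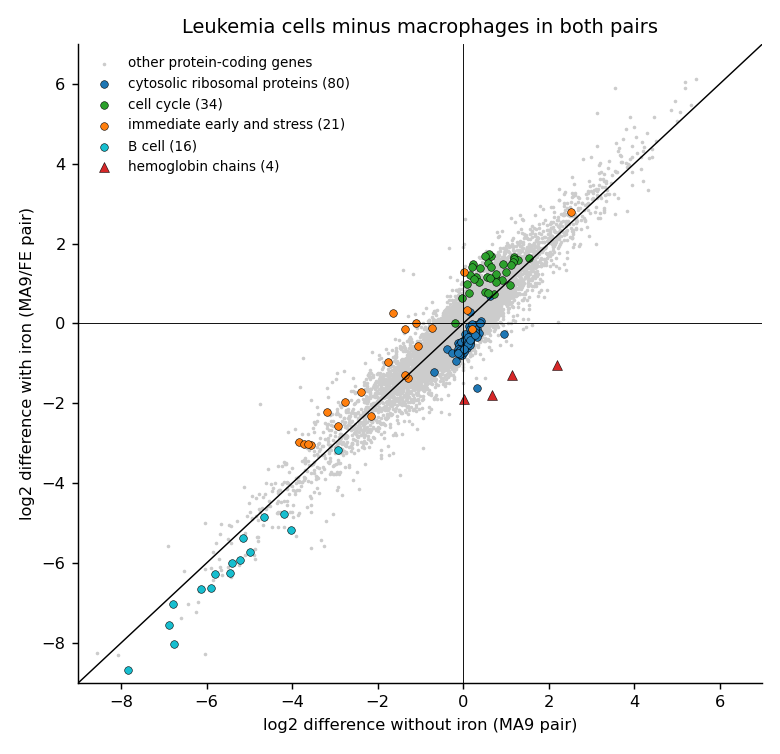
Difference of each of the 11356 genes, leukemia cells minus macrophages in log2(FPKM + 1), without iron (horizontal) and with iron (vertical). The diagonal marks equal differences. Of all genes 5573 lie above it and 5783 below. Cell cycle genes lie above it (33 of 34), ribosomal protein genes below it (78 of 80), and the 4 hemoglobin chains are the group farthest below.

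Both pairs together allowed the only test, limma over the 4 libraries of MA9 mice with iron as a covariate. Of 11172 genes tested, 5533 passed an adjusted p of 0.05 (49.5%), 2831 higher (25.3%) and 2702 lower (24.2%), and 6152 had an unadjusted p under 0.05. Without the MA9 leukemia cells 3039 genes passed (1339 higher), and without the MA9/FE leukemia cells 3060 (1342 higher). The test has 1 residual degree of freedom, which is the disagreement between the 2 pairs, and leans on a prior worth 10. Its p-values thus set a difference against how far the pairs disagree, not against the spread between mice. Of the 1302 genes called higher with iron 1278 passed (98.2%), and of the 1626 called lower 1550 (95.3%), a count that shares the iron pair's libraries. Hoxa9 differed by 4.55 ± 0.16 (SE), higher in 2 of 2 pairs (limma adjusted p = 2.63e-09). Cd79a differed by -8.26 ± 0.20, lower in 2 of 2 pairs (limma adjusted p = 4.5e-10). It was named for its size in the iron pair, so this p-value is not independent of that choice. Slc40a1 and Hmox1 differed by -2.66 ± 0.27 and -3.21 ± 0.18, each lower in 2 of 2 pairs (limma adjusted p = 7.54e-06 and 5.97e-08). Cd47 differed by 1.01 ± 0.17, higher in 2 of 2 pairs (limma adjusted p = 5.21e-04). Among the cell cycle genes 31 of 34 passed as higher and 0 as lower. Of 80 ribosomal protein genes 1 passed in each direction. Ftl1, with -0.60 in the iron pair and 0.24 in the other, did not pass (-0.18 ± 0.35, limma adjusted p = 0.691), and neither did Adgre1's partner in the gate, Csf1r (-0.24 ± 0.19, limma adjusted p = 0.329). Adgre1 passed at -0.57 ± 0.19 (limma adjusted p = 0.0273), lower in 2 of 2 pairs.

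The difference depended on exon length to a small extent. Spearman's rho of the difference on length over the 11356 genes was 0.143 and Pearson's r was 0.113, given as a description since genes share both libraries and are not replicates. The median rose from -0.20 in the shortest of 10 equal length bins, of 36 to 1661 bases, to 0.20 in the longest, of 9603 to 41324 bases. The share of genes called lower fell from 20.5% to 9.33% over the bins, while the share called higher was 12.4% in the shortest and 12.9% in the longest. Without iron rho was -0.0677 and the medians of the same bins were 0.13 and -0.05. The same coefficient was -0.454 for MA9/FE against MA9 macrophages, -0.506 for MA9/FE against WT/FE macrophages, -0.448 for MA9/FE against WT macrophages, and 0.0730 for MA9/FE against MA9 leukemia cells. The MA9/FE macrophages thus read higher on short genes than the 3 other macrophage libraries. A trend was also seen in a pair without them, with 0.285 for WT/FE against WT macrophages, and it was 0.0110 for MA9 against WT macrophages. When the trend was removed by a lowess curve, 1270 genes were higher and 1618 lower, of which 1191 and 1546 had been called before. The medians of MLL-AF9 targets (2.42), azurophil granule (3.23), red pulp macrophage, MHC class II (-5.35) and cell cycle genes (1.22) changed by at most 0.11, while that of the ribosomal protein genes went from -0.43 to -0.31 and that of the respiratory chain genes from 0.01 to 0.11.

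**Figure D5:**
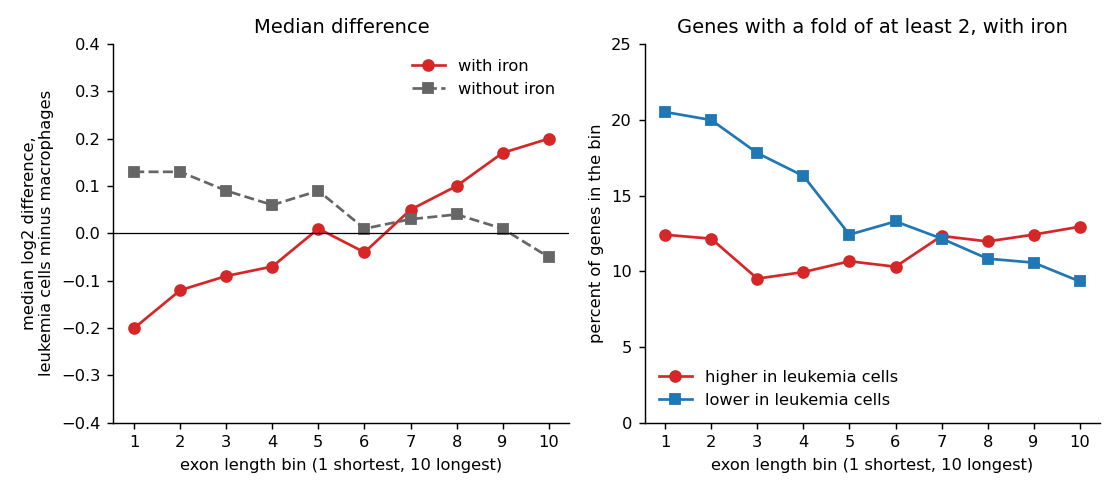
Left, median difference in log2(FPKM + 1), leukemia cells minus macrophages, by 10 bins of exon length (1 shortest, 10 longest), with and without iron. Right, percent of genes called in each direction with iron, in the same bins. The median with iron climbs from -0.20 to 0.20, and the share lower in leukemia cells falls from 20.5% to 9.33%.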

How the data were processed

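Sorted macrophages (4 libraries) and leukemia cells (2 libraries) were measured by RNA-seq on an Illumina NovaSeq. The authors deposited FPKM for each gene, and the submitters' processing notes name mm10, Bowtie2 2.2.5 and RSEM, with no role or order. How reads on near-identical genes were treated was not given in the sources used here. Multiplied by GENCODE M21 (GRCm38) exon length, between 96.8% and 97.0% of the deposited FPKM values above 0 came within 0.05 of a whole number of reads, which gave the depth. At this depth counting error is small for most genes. With 1 library per condition, the spread between mice limits the precision.

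The members and the 41 gene lists were chosen with earlier results of these data known, and no list is independent evidence of its own direction. Counts and medians of a list cover its members at the minimum level and leave out listed genes under it. A symbol shared by several gene IDs stands for the ID with the most reads. FPKM were scaled by TMM (coded by hand, trimming 30% of ratios and 5% of levels at each end), and a pseudocount of 1 was added before the log2. Genes named are the 12 largest differences in each direction among genes whose higher library held 100 reads or more, the iron and checkpoint lists, and up to 6 genes of each other list. Ccl3, Fcgr3, Fos, Lars2 and Slc2a3 were named after their values had been seen. Some genes that the rule would name are not reported here. limma 3.58.1 (R 4.3.3, empirical Bayes with trend, two-sided, Benjamini-Hochberg) was run on log2(FPKM + 1) of 4 libraries, for genes that reached an FPKM of 1 in 2 or more of them. Folds against 0 reads use a floor of 3 reads per library. Promoters (RefSeq, GRCm38.p6) were matched by symbol for 9036 genes (79.6%), and 13 motifs were searched on both strands in 300 bases each: Y box (CTGATTGG), octamer (ATGCAAAT), EBF (TCCC and GGGA with 2 bases between), C/EBP palindrome (TTGCGNAA), C/EBP core (TTGCNNAA), PU.1 (GAGGAAGT), MYB (TAACNG), interferon response element (GAAA repeated after 2 bases), E2F (TTTGGCGC or TTTCCCGC), CHR (TTTGAA), RUNX core (TGTGGT) and the CCAAT box (the letters of its name). The C/EBP core contains the palindrome. Alternatives were other scalings, pseudocounts, minimum levels, folds, removal of the length trend (lowess, fraction 0.3) and leaving out libraries. Reads were not tested by a count model, because the deposited values are FPKM. On simulated data with a log2 change of 2, the fold of 2 recovered 98.5% of 200 genes among 10881 with 0 false calls. limma recovered 100% of 200 among 11172 with 13 false calls, and removal of a trend put in took rho from 0.929 to 0.00169. The simulated pair held counting error only, and only genes with many reads were changed. The limma simulation gave every gene the same noise and the same iron effect in both kinds of cell. Neither held a spread between mice, so these figures check the code and are not error rates of these data. Python 3.11.15, numpy 2.4.6, pandas 2.3.3, scipy 1.17.1, statsmodels 0.14.6 and matplotlib 3.10.9 were used. 1 list, of Y-linked genes, had 0 genes at the minimum level.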

Additional observations from a re-analysis of the deposited data

Results flagged for a closer look

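In 4 genes the difference between leukemia cells and macrophages passed a fold of 2 in opposite directions with and without iron, and the difference between the pairs was not tested. Hbb-bs, a beta chain of hemoglobin, differed by -1.30 with iron and by 1.15 without, and Hba-a2, an alpha chain, by -1.03 and 2.19. Hbb-bs had an FPKM of 180.5 and 83.4 in MA9/FE and MA9 macrophages and 74.3 and 190 in the leukemia cells, so the order of the 2 kinds of cell was opposite in the pairs. Orm1, an acute phase protein, differed by 1.25 with iron and -1.18 without, on 30 and 4 reads with iron and 18 and 54 without. Gm17651 differed by 1.34 and -1.41, and rests on 1 read in 1 library of each pair.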

How the results depend on the processing

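The count of 2928 genes called ranged from 2585 in the pair without iron to 3655 with a pseudocount of 0.1 under the scalings, read minimum and length alternatives run. It was 1549 (769 higher, 780 lower) at an FPKM of at least 10, 947 (324 and 623) at a fold of 4 and 5024 (2451 and 2573) at a fold of 1.5, where fewer genes or another fold set the count. Of the called genes 44.5% were higher, and between 34.2% (fold of 4) and 49.6% (FPKM of at least 10) under the alternatives. The rho on exon length was 0.143, 0.1855 at an FPKM of at least 10, and -0.06771 in the pair without iron, where the direction was opposite. The cause was not tested. None of the 24 list medians that passed a fold of 2 and of the 24 genes of the 12 largest in each direction changed direction in any alternative, whereas 5 of the other 16 list medians changed sign (ferroptosis, actin, ribosomal protein, endothelium, basophil). Over 40 lists and 24 genes, 76 of 359 list values and 34 of 216 gene values moved by more than counting error (for lists, the median of the members' errors). In the limma fit 5533 genes passed, and between 5296 and 6218 under another scaling, pseudocount, minimum or length removal and without the iron term. Leaving out 1 library gave between 3039 and 6815 genes, with 3039 without MA9 leukemia cells and 3060 without MA9/FE leukemia cells. There the lone leukemia library is assumed to vary like the macrophages. With iron as a covariate, the limma fit set leukemia cells against macrophages within each iron state. Pairing by mouse was not possible because each condition has 1 library and the labels give no replicate numbers.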

Other observations

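The 15 most abundant protein-coding mRNAs of each MA9/FE library shared 9 genes, of mitochondria, translation and actin. In the leukemia cells Lyz2 (1348), Elane (1270) and Ctsg (1154) stood among mitochondrial and translation genes, with mt-Co1 the highest at an FPKM of 3869. In the macrophages Cd74, H2-Eb1, H2-Ab1 (3132) and H2-Aa (2081) stood there with B2m (2995), the light chain of MHC class I. Tmsb4x, an actin-binding peptide, was in both, at 1108 in the leukemia cells and 2841 in the macrophages (-1.39).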
